A study of Mus musculus with 6 samples.

Results

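RNA-seq values of dental epithelial organoids (DEOs) grown with FGF10 and dibenzazepine (DBZ), the +NFD medium, were compared with those of DEOs grown with FGF10 and no DBZ, the +NF medium. Of the 6 libraries in the series, 2 make up this comparison, the 1 library of +NF and the 1 library of +NFD, and 4 libraries with values were analysed here. Both groups were grown for 14 days in Matrigel from epithelium of the apical bud of the incisor of wild-type C57BL/6J female mice aged 9 weeks. Both media held conditioned medium with Wnt3a (50%) and with R-spondin1 (5%), N-acetylcysteine (1 mM), Y27632 (10 µM), and, as the labels print the doses, EGF at 100 µg per ml, Noggin at 200 µg per ml and FGF10 at 100 µg per ml. They differed in DBZ, which was at 10 µM in +NFD and absent from +NF (the study's methods text prints the same number in mmol per litre, a far higher dose, and which unit was used is not settled here). The pair without FGF10, +ND against +N, is set beside this comparison where it helps, and it shares no library with it. The labels name no pooling of animals, and with 1 library per medium there was no replicate check, so no p-value is given and every difference below is a difference between 2 libraries. A gene entered the comparison if its FPKM (fragment number scaled to transcript length and library size) reached 1 in either library, which left 13349 of 47360 gene symbols. The ratio is log2((FPKM + 1)/(FPKM + 1)), +NFD over +NF, so that a positive value is higher with DBZ, and it understates the change of genes of low level. Where values of a gene are given as a pair, the first is the FPKM in +NF and the second that in +NFD.

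Notch receptors are cleaved within the membrane by γ-secretase after a ligand on a neighbouring cell has bound them, and the released intracellular domain joins Rbpj and Maml proteins to switch on target genes such as those of the Hes and Hey families. DBZ inhibits γ-secretase, which also has substrates other than Notch. In stratified epithelia, Notch is known for its part in the step from basal to suprabasal cells, and in the tooth its receptors and ligands mark the stratum intermedium, the layer that lies against the ameloblasts. FGF10 is a mesenchymal growth factor that signals through the epithelial isoform of Fgfr2 and maintains the stem cell region of the mouse incisor.

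Depth was nearly equal in the libraries compared: the smallest step between low values, which is what 1 fragment is worth, gave +NFD 0.999 times the depth of +NF, against 0.943 times for +N and 0.764 times for +ND. Genes above 0 numbered 20245 in +NF and 20450 in +NFD. A single gene, BC037156, took 12.04% of the summed FPKM in +NF and 5.71% in +NFD, and this share enters the level of every other gene. Keratinocyte and dental epithelial markers were abundant in both libraries (Krt5 at 6535 and 6177 FPKM, Odam at 5441 and 2602), whereas Sp6 and Sfrp5, also on the dental epithelium list, were under 1 FPKM in both. Markers of endothelium, lymphocytes, neurons and glia, and erythroid cells were all under 1 FPKM in both libraries, their sums not exceeding 0.861 FPKM. Mesenchymal and macrophage transcripts were present and are given beside the results they touch.

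With DBZ, genes of the cornified layer were far higher, interferon-stimulated genes were far lower, amelogenin and ameloblastin transcripts went from a few fragments to high levels, and cell cycle genes stayed within 2-fold. By this measure 497 of the 13349 genes (3.72%) were higher in +NFD by 2-fold or more, and 359 (2.69%) were lower by as much. Over all genes the median log2 ratio was 0.048, 57.2% of genes were higher in +NFD, and the 5th and 95th percentiles were -0.67 and 0.80. Of the 497 higher genes 43 had no annotated transcript of 300 nt or more, as had 36 of the 359 lower genes, against 117 of all 13349; FPKM of such short RNAs rests on few fragments. In whole organoids, a lower value can mean fewer cells of a type or less RNA per cell, and these cannot be told apart.

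**Figure D1:**
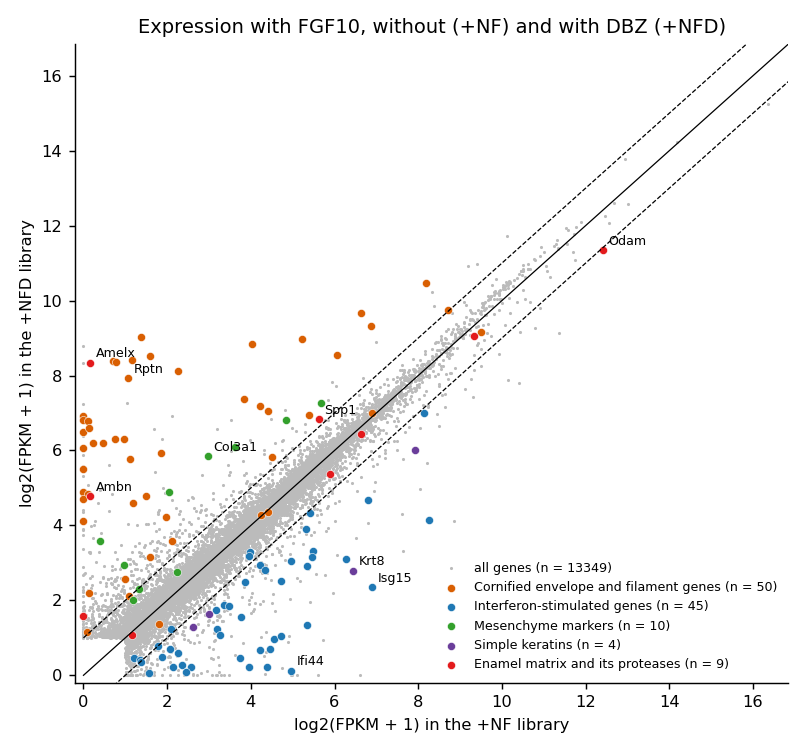
Level as log2(FPKM + 1) of each of the 13349 genes in +NF (horizontal) and in +NFD (vertical), 1 library per medium, with dashed lines at a 2-fold difference and the genes of 5 lists in colour. Amelx and most cornified genes lie above the upper dashed line, and Ifi44, Isg15, Krt8 and most interferon-stimulated genes below the lower one.

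Of the 15 highest log2 ratios among protein-coding genes of at least 5 FPKM, 12 belonged to the Lce family of late cornified envelope proteins, and the other 3 were Amelx, Rptn and Asprv1. Among the 15 lowest, 7 were interferon-stimulated genes, and the others included Scgb1a1 (51.8 FPKM in +NF, 0.918 in +NFD), a secretoglobin of airway epithelium, Ltf (199 and 8.90), which encodes lactotransferrin, and Sftpd (19.4 and 0.0194), a surfactant collectin. The rest of the lowest genes were Nat8l (25.6 and 0.151), Prss33 (28.6 and 0.837), Rhov (29.03 and 1.06), Enpp3 (18.98 and 0.419) and Crisp1 (61.2 and 3.60). All 15 of the lowest genes were also at least 2-fold lower in +ND than in +N, and 14 of the 15 highest were also at least 2-fold higher there, the exception being Amelx. In the pair without FGF10, the shares of passing genes beyond 2-fold were 5.88% on the higher side and 5.29% on the lower side.

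The Notch pathway itself is the target of DBZ, and its genes were examined first. The known target genes did not move as a block: of 18 listed, 9 passed the filter, 2 of these were lower by 2-fold or more and none higher by as much, and their median was 0.073 on the log2 scale. Nrarp, a target that feeds back on Notch, was at 9.12 FPKM in +NF and 2.60 FPKM in +NFD, a 3.51-fold lower level (95% interval of the fragment ratio 2.99 to 4.12, counting error only). Hes1, the best known target of the pathway, was also lower, from 109 to 80.1 FPKM, but within 2-fold (log2 ratio -0.44). The other targets were spread around 0. Notch3, itself a Notch target, had a log2 ratio of -0.76, whereas Hes6 was at 43.7 and 45.99 FPKM, Myc at 62.2 and 72.9, Cdkn1a at 241 and 282, and Id3 at 339.6 and 469. Hey1 (0.519 and 0.754 FPKM), Hey2, Heyl, Hes2, Hes7, Dtx1 and Gata3 were under 1 FPKM in both libraries, and Hes3 and Hes5 were listed at 0 in both.

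Receptors and ligands differed in direction. Of 14 listed genes, 10 passed the filter, and 6 of these were higher in +NFD. Jag1, the ligand on the stratum intermedium list, was at 44.4 FPKM in +NF and 21.5 FPKM in +NFD (log2 ratio -1.01). The receptors were all lower but within 2-fold: Notch1 was at 15.3 and 10.4 FPKM, Notch2 at 10.1 and 5.82, and Notch3 at 19.7 and 11.3, while Notch4 was under 1 FPKM. The canonical ligands Jag2 (71.5 and 80.9 FPKM) and Dll1 (18.2 and 20.5) and the glycosyltransferase genes Lfng (20.9 and 23.1) and Rfng (14.9 and 18.9), whose products modify the receptors, were slightly higher. Dlk2, a non-canonical ligand, went the other way from Jag1, with 1.72 FPKM in +NF and 9.75 in +NFD, the 1 member at least 2-fold higher (log2 ratio 1.98); its relative Dlk1 was at 7.34 and 12.7 FPKM. Dll3, Dll4 and Mfng were under 1 FPKM in both libraries.

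All 22 genes of ligand and receptor processing and of the nuclear complex passed the filter, and none reached 2-fold, with a median of 0.0097. The lowest ratio was that of Furin (-0.57), the protease that makes the first cut in Notch, and the highest that of Aph1c (0.44), a subunit gene of γ-secretase. Of the other γ-secretase genes, Ncstn was at 130.4 FPKM in +NF and 95.3 in +NFD, Psen2 at 3.52 and 4.22, Psenen at 166 and 181, Aph1a at 81.3 and 85.8, and Aph1b at 5.38 and 6.38. The transcript levels of the enzyme that DBZ inhibits thus lay within 2-fold of each other. Rbpj, the DNA-binding partner, was at 21.7 and 26.5 FPKM. Maml1 (10.9 and 11.1 FPKM), Maml2 (4.81 and 3.11) and Maml3 (5.76 and 7.70), the coactivator genes, differed in direction. Adam10 (36.9 and 37.1 FPKM) and Adam17 (29.8 and 21.6), which encode the proteases of the second cut, were within 2-fold, as were the endocytosis and turnover genes Numb (-0.23 on the log2 scale), Numbl (0.32), Itch (-0.23), Mib1 (-0.043) and Fbxw7 (0.071).

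**Figure D2:**
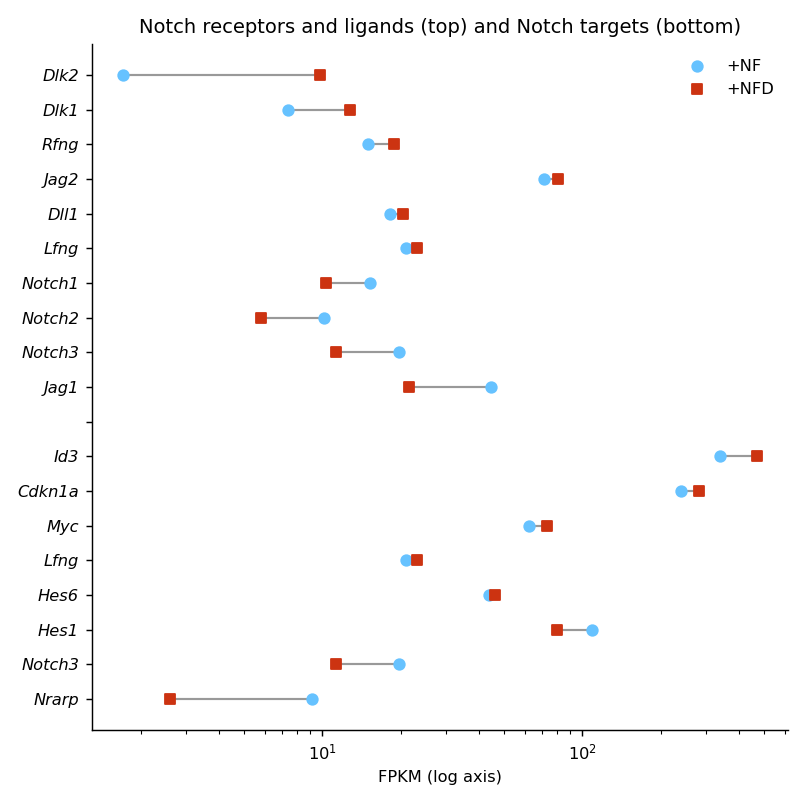
FPKM (log axis) in +NF (blue circles) and +NFD (red squares), joined by a line for each gene, for the genes described from the Notch receptor and ligand list (top) and the Notch target list (bottom), 1 library per medium. Nrarp and Jag1 are the genes furthest to the left with DBZ relative to +NF and Dlk2 the one furthest to the right; Lfng and Notch3 appear in both groups because both lists hold them.

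The binding motif of Rbpj, GTGGGAA on either strand, was searched in the 250 bases before the start of each gene in RefSeq (GRCm38.p6). It stood in 5.41% of all 27025 promoters and in 4 of the 11 Notch target genes with a promoter in the table (Hes5, Hes7, Hey2 and Lfng). Of these only Lfng passed the filter, so the window around its motif is shown, with the motif in capitals, at chr5:140607212-140607258 on the plus strand.
Lfng: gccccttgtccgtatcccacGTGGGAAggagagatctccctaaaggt
A motif match is a description of the sequence and was not tested as a binding site.

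Enamel matrix genes held the highest ratios of the tooth genes. Amelx, on chromosome X from 169176114 to 169187200, encodes amelogenin, the main protein of forming enamel. It was at 0.120 FPKM in +NF, or about 3.02 fragments, and at 323 FPKM in +NFD, or about 8129 fragments, a ratio of 2699 with a 95% counting interval of 928 to 13158. Arhgap6, within which Amelx lies on the opposite strand, was at 0.128 and 0.118 FPKM. Ambn, which encodes ameloblastin (chromosome 5 from 88455991 to 88468531), was at 0.117 FPKM, about 6.49 fragments, in +NF and at 26.4 FPKM in +NFD, a ratio of 226 (95% counting interval 112 to 668). Enam, the enamelin gene, was listed at 0 in +NF, where 3 fragments correspond to 0.0183 FPKM, and at 1.97 FPKM in +NFD, about 324 fragments. Mmp20, the protease of the secretory stage, was under the filter, listed at 0 in +NF and at 0.194 FPKM in +NFD, about 19.04 fragments.

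These genes of the secretory stage were thus near or at 0 in +NF and measurable in +NFD, at levels that fall from Amelx to Ambn, Enam and Mmp20. The rest of the list did not share the direction. Spp1, which encodes osteopontin, was at 48.5 and 114 FPKM (log2 ratio 1.21). Odam, of the maturation stage and junctional epithelium, was abundant in both libraries and at least 2-fold lower in +NFD, at 5441 and 2602 FPKM. The remaining passing members were within 2-fold, namely Amtn (1.24 and 1.13 FPKM), Gm1045, the symbol in the table for Odaph (644 and 526), and the kinase genes Fam20a (98.2 and 85.8) and Fam20c (58.5 and 40.2). Klk4, the protease of maturation, was listed at 0 in both. Of 13 list members found, 9 passed the filter. Of these, 4 were higher by 2-fold or more (44.4%, against 3.72% of all genes) and 1 lower by as much (11.1%, against 2.69%).

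**Figure D3:**
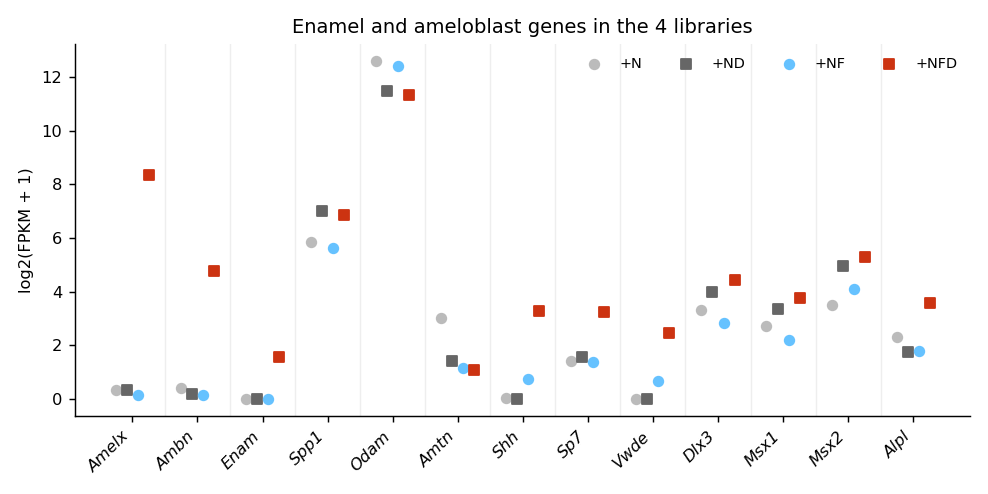
Level as log2(FPKM + 1) of enamel matrix genes and ameloblast regulators in the 4 libraries +N, +ND, +NF and +NFD, 1 point per library. Amelx and Ambn stand far above the other libraries in +NFD alone, and Odam is lower in both media with DBZ.

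Regulators of ameloblasts and tooth epithelium were mostly higher with DBZ. Of 27 listed, 25 passed the filter and 21 were higher in +NFD (84.0%, against 57.2% of all genes). At least 2-fold higher were 6 of the 25 (24.0%, against 3.72% of all genes), and none was at least 2-fold lower. Their median log2 ratio was 0.60, against 0.048 over all genes. Shh, the hedgehog ligand of the enamel knot and of preameloblasts, was at 0.679 FPKM in +NF and 8.74 FPKM in +NFD (log2 ratio 2.54). Sp7, a zinc finger factor of bone and tooth, was at 1.60 and 8.54 FPKM. Vwde was at 0.583 and 4.50 FPKM. Homeobox genes moved in the same direction: Dlx3 was at 6.03 and 20.4 FPKM, Msx1 at 3.62 and 12.6, and Msx2 at 16.1 and 38.4, all at least 2-fold higher. Dlx1, Dlx2, Dlx4, Dlx5 and Dlx6 were higher by 0.63 to 0.98 on the log2 scale, each within 2-fold. Some regulators lay on the other side, among them Itgb6, an integrin gene of ameloblasts, at 9.18 and 5.20 FPKM, and Wdr72 at 2.36 and 0.690 FPKM, which stays within 2-fold (log2 ratio -0.99) only because 1 is added to each level. Runx2 (56.2 and 57.95 FPKM) and Fam83h (46.1 and 52.2) were nearly equal.

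Several of these genes, among them Sp7, Msx1, Spp1, Alpl and Ibsp, are also known from mesenchymal cells that form bone and dentine. Mesenchymal markers moved in the same direction: all 10 passed the filter, all 10 were higher in +NFD, and their summed level was 107 FPKM in +NF and 448 FPKM in +NFD. Their part in the enamel and regulator results was not tested. On the stratum intermedium list, Alpl, which encodes alkaline phosphatase, was at 2.41 and 11.02 FPKM (log2 ratio 1.82) and Ibsp at 34.4 and 68.6; Jag1 was the 1 member lower by 2-fold or more, and the median over 8 passing genes was -0.19. Of the genes of enamel maturation transport, 11 passed the filter and 1, Car2 (6.24 and 2.56 FPKM), a carbonic anhydrase gene, was at least 2-fold lower. None of them was at least 2-fold higher, and the median was -0.071.

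Genes of dental epithelial stem and progenitor cells showed smaller differences. Of 20 that passed the filter, 12 were higher, and only Fgf9, listed at 0 in +NF and at 2.56 FPKM in +NFD, was at least 2-fold higher. Sox2 was at 8.21 and 5.83 FPKM, Lgr5 at 2.07 and 1.10, Isl1 at 34.8 and 21.2, and Bmi1 at 9.85 and 9.36. Pitx1 (104 and 161 FPKM) and Igfbp5 (7.33 and 13.6) were higher within 2-fold. Edaradd (1.14 and 2.96 FPKM) was higher too and stayed within 2-fold (log2 ratio 0.88) only because 1 is added to each level. The 18 basal keratinocyte genes had a median of -0.086. Of these, Trp63 was at 100.4 and 124 FPKM, Krt14 at 8295 and 6089.8, and Itgb4, the β4 integrin of hemidesmosomes, at 402 and 581. Past 2-fold on the lower side were 2 of the 18, with a lowest log2 ratio of -1.45, and none was past it on the higher side. Lama3 (147 and 63.7 FPKM), which encodes a laminin chain of the basement membrane, was one of them, and Lamb3, a further laminin chain gene, was at 385 and 304 FPKM.

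Cornified envelope and filament genes had the highest median ratio of all the lists. Of 57 found, 50 passed the filter, 47 of these were higher in +NFD, 45 (90.0%, against 3.72% of all genes) at least 2-fold, and none was lower by as much. The group's median log2 ratio was 3.94. The 14 Lce1 genes were at 0 to 0.944 FPKM in +NF, 7 of them listed at 0, and at 1.22 to 121 FPKM in +NFD. Every Lce1 gene was thus under 1 FPKM in +NF and passed the filter only through +NFD. All 6 Lce3 genes went from 0.618 to 3.78 FPKM in +NF to 277 to 525 FPKM in +NFD. The Lce and Sprr2 genes are close copies of each other, and how fragments were split among them is uncertain.

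Structural genes of the late epidermis followed. Rptn, a fused S100 protein gene, was at 1.09 FPKM in +NF and 244 FPKM in +NFD, Flg, the filaggrin gene, at 1.28 and 23.3, and Lor, the loricrin gene, at 13.4 and 164. Crct1 was at 15.2 and 456 FPKM, Cnfn at 98.8 and 808, and Sbsn at 17.6 and 144. All of these were past 2-fold. Some other genes of the envelope were within 2-fold: Ivl, the involucrin gene, at 2.48 and 1.60 FPKM, Evpl at 20.4 and 19.6, Ppl at 18.1 and 18.3, and the crosslinking enzyme gene Tgm1 at 119 and 127. Further ones were at least 2-fold higher, among them Sprr1b (20.2 and 133 FPKM), Sprr1a (415 and 865) and the transglutaminase gene Tgm3 (0.103 and 3.62).

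Most of these genes lie together in the epidermal differentiation complex. Between Lor and Tchhl1, on chromosome 3 from 92080271 to 93471980, 48 genes passed the filter, and 44 of them (91.7%) passed 2-fold on the higher side, with a median log2 ratio of 4.11. Of the 8 passing genes in this stretch that are on no cornified list, 5 were at least 2-fold higher, among them Kprp, a keratinocyte proline-rich protein gene, at 0.518 and 47.6 FPKM. Many passing genes of the stretch, among them the Lce1 genes, Sprr2e and Kprp, were under 1 FPKM in +NF and entered only through +NFD. Genes that entered in this way could only be higher, so the filter itself adds to the share of higher genes here. On the rest of chromosome 3, 23 of 670 passing genes (3.43%) were at least 2-fold higher. Outside the complex, the share on this chromosome was thus close to that over all genes.

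A motif bound by AP-1 factors, TGACTCA on either strand (TGAGTCA on the other), stood in the 250 bases before the start of 12 of the 45 passing cornified genes with a promoter in the RefSeq table (26.7%) and of 4.43% of all promoters. It also stood in 6 of the 34 passing interferon-stimulated genes with a promoter there (17.6%), a group that was lower with DBZ. The cornified genes with the motif included several Sprr2 genes, whose promoters are close copies, so the share does not count separate cases. Ivl (2.48 and 1.60 FPKM) and Dmkn (725 and 574) held the motif too and were lower within 2-fold. Windows are shown for Lor and for some Sprr2 genes, whose products are small proline-rich proteins of the envelope, to let these close copies be compared. The motif is in capitals, and the windows are given 5′ to 3′ on the strand of the gene, at chr3:92083164-92083210 for Lor (minus strand), chr3:92316490-92316536 for Sprr2b, chr3:92338927-92338973 for Sprr2d, chr3:92351930-92351976 for Sprr2e and chr3:92364970-92365016 for Sprr2f (plus strand), in GRCm38.p6.
Lor: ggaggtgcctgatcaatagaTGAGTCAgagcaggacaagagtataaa
Sprr2b: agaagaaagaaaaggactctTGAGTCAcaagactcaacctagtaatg
Sprr2d: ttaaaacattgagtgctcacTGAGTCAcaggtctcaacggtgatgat
Sprr2e: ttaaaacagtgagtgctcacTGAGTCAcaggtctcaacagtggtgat
Sprr2f: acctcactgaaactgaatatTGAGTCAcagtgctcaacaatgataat
Sprr2d was at 292 and 1408 FPKM, Sprr2e at 0.673 and 78.01, and Sprr2f at 36.1 and 507, whereas Sprr2b was listed at 0 in +NF and at 16.5 in +NFD. Of the AP-1 and immediate early genes, 19 passed the filter and 14 were higher (73.7%, against 57.2% of all genes). At least 2-fold higher were 2 (10.5%, against 3.72% of all genes), Fosl1 (7.59 and 16.3 FPKM) and Nr4a2 (log2 ratio 1.46). Binding of AP-1 to these windows was not tested.

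Genes that build the lipid barrier and take the cornified layer apart were higher as well. Of 25 passing lipid barrier genes, 22 were higher and 9 at least 2-fold, with a median of 0.40. Alox12b, a lipoxygenase gene of the barrier, was at 0.281 FPKM in +NF and 23.4 FPKM in +NFD, Abca12, a lipid transporter gene, at 0.826 and 6.18, and Elovl4, of very long fatty acid synthesis, at 1.53 and 10.5. Sptlc3, which encodes a subunit of serine palmitoyltransferase, was the exception past 2-fold on the lower side, at 3.04 and 0.394 FPKM. Corneodesmosome genes and their proteases had 19 passing members, with a median of 2.29. Of these, 14 were higher by 2-fold or more (73.7%, against 3.72% of all genes) and none was lower by as much. Cdsn, the corneodesmosin gene, was at 2.20 and 93.4 FPKM, Dsc1 at 0.119 and 8.79, and the kallikrein gene Klk7 at 0.0775 and 32.9. The kallikreins went together, with Klk5 to Klk11, Klk13 and Klk14 all at least 2-fold higher, while their inhibitor Spink5 was at 125 and 145 FPKM. Asprv1, a protease gene that acts on filaggrin, was at 1.07 and 153 FPKM.

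Core desmosome genes did not share this pattern: of 11 that passed the filter none reached 2-fold, and 3 were higher. Stefin genes, which encode cysteine protease inhibitors, were higher, with Csta1 at 2.74 and 31.2 FPKM and Stfa3 at 2.46 and 19.6, although these copies too may share fragments. S100 genes were split, S100a8 being at 1.31 and 4.52 FPKM and its partner S100a9 at 129 and 49.3, past 2-fold in opposite directions.

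Keratin genes separated by layer. All 4 passing keratins of simple epithelia were at least 2-fold lower in +NFD: Krt8 was at 85.96 and 5.95 FPKM, its partner Krt18 at 241 and 63.2, Krt19 at 6.95 and 2.09, and Krt7 at 5.15 and 1.43. All 8 passing suprabasal keratins were higher and 6 at least 2-fold, with a median of 1.05, but at low levels: Krt80 was at 2.83 and 28.3 FPKM, Krt76 at 3.86 and 13.8, and Krt10, the keratin of spinous cells of the skin, at 1.25 and 2.93. Krt1, its partner, was at 0.0123 and 1.07 FPKM. Among the keratins of stress and of the companion layer, Krt16 (321 and 1193 FPKM) and Krt75 (0.849 and 3.76) were at least 2-fold higher, whereas Krt6a (2269.8 and 1584) and Krt6b (1073 and 648) were lower within 2-fold. The keratins thus did not follow the cornified genes in level: the summed FPKM of the suprabasal keratin list was 31.3 in +NF and 97.4 in +NFD, that of the cornified list 2069 and 10082.

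Cell junction genes included both directions. Of the gap junction genes, Gjb2 was higher, at 5.10 and 25.4 FPKM, as was Gjb6, at 0.145 and 2.53. Claudins of simple epithelia were lower, with Cldn3 at 8.94 and 1.75 FPKM, Cldn6 at 12.9 and 3.29, and Cldn7 at 31.6 and 12.1. The median of the 25 passing genes was -0.38. Past 2-fold were 2 on the higher side (8.0%, against 3.72% of all genes) and 5 on the lower side (20.0%, against 2.69%). Epcam, the 1 general epithelial marker past 2-fold, was at 218 and 98.4 FPKM, and Cdh1, which encodes E-cadherin, at 120.3 and 74.7.

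Transcription factors of stratification lay on both sides, with 18 of 34 higher (52.9%, close to the 57.2% of all genes). Ovol1 (6.49 and 20.2 FPKM) and Klf4 (14.05 and 35.3), known for the late steps of keratinocyte differentiation, were at least 2-fold higher. Sox9 (21.6 and 2.81 FPKM), a factor of hair follicle and glandular progenitors, Pparg (8.45 and 2.07), and Zfp750 (14.5 and 5.92) were at least 2-fold lower. Zfp750 is known as an activator of epidermal differentiation, so that the factors past 2-fold did not all follow the direction of the cornified genes.

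**Figure D4:**
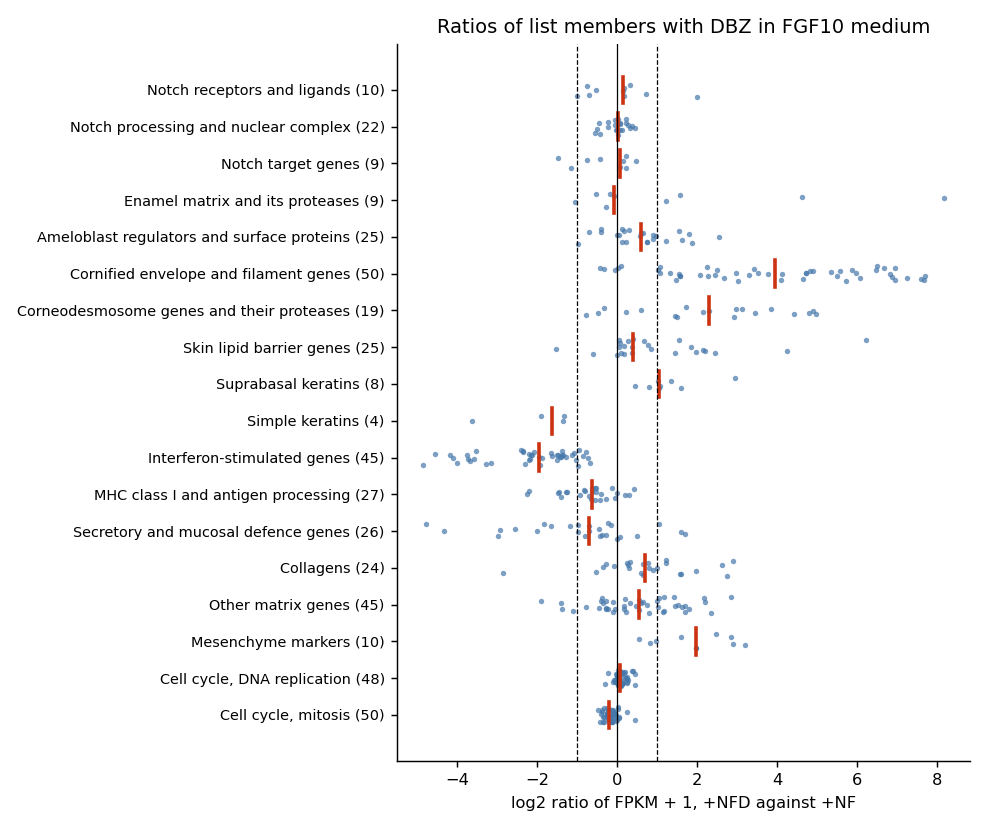
Log2 ratio of +NFD over +NF for the passing genes of each list, 1 point per gene, with the median of each list as a bar and 2-fold lines, 1 library per medium. The cornified and corneodesmosome lists lie mostly above the upper line, the interferon list mostly below the lower line, and the cell cycle lists between the lines.

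Interferon-stimulated genes, which cells switch on after interferon has bound its receptor, were lower with DBZ without exception among those measured. Of 57 listed, 45 passed the filter, all 45 were lower in +NFD, 39 (86.7%, against 2.69% of all genes) by at least 2-fold, with a median of -1.95. Isg15, which encodes a ubiquitin-like protein, was at 118 FPKM in +NF and 4.09 FPKM in +NFD, Ifit1 at 20.00 and 0.160, and Ifi44 at 30.2 and 0.0862. Factors of the pathway were on the same side: Stat2 was at 19.1 and 6.02 FPKM, Irf9 at 43.3 and 7.91, and Irf7 at 75.8 and 7.61. So were sensors of viral RNA, with Ddx58 at 25.6 and 4.76 FPKM and Ifih1 at 10.2 and 2.64, and antiviral effectors such as Oas1a (22.4 and 0.970) and Bst2 (111 and 24.5). The 6 members within 2-fold included Irf1 (14.7 and 8.87 FPKM), Isg20 (14.6 and 8.05) and Cxcl10 (1.31 and 0.385), Cxcl10 only because 1 is added to each level. Copies within the Ifit and Oas1 families may share fragments.

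Genes of this group are known for the interferon-stimulated response element, and its core, GAAA followed by any 2 letters and GAAA on either strand with overlapping matches joined, was searched in the 250 bases before the start. It stood in 18 of the 34 passing interferon-stimulated genes with a promoter in the table (52.9%) and in 821 of 27025 promoters in all (3.04%). The windows of Isg15 (chr4:156200855-156200916, minus strand), Ifit1 (chr19:34640765-34640833, plus), Oas1a (chr5:120907526-120907565, minus) and Bst2 (chr8:71537567-71537622, minus) are shown with that of B2m (chr2:122147528-122147577, plus), a gene of antigen presentation described next, with the matched letters in capitals, 5′ to 3′ on the strand of the gene.
Isg15: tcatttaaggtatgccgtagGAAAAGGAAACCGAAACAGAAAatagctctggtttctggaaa
Ifit1: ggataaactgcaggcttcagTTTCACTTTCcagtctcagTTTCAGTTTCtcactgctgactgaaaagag
Oas1a: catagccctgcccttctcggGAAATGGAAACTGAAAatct
Bst2: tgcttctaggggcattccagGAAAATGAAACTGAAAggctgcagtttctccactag
B2m: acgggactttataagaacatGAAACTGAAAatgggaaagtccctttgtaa
Isg15, Oas1a and Bst2 hold overlapping copies of the element, and Ifit1 holds 2 separate copies on the opposite strand; these matches describe the letters only.

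Antigen presentation genes of MHC class I were lower too, by less. Of 27 that passed the filter, 24 were lower and 7 by at least 2-fold (25.9%, against 2.69% of all genes), with a median of -0.64. B2m, the shared light chain, was at 1125 FPKM in +NF and 236 FPKM in +NFD, the heavy chain genes H2-K1 at 398 and 143 and H2-D1 at 558 and 199. The peptide transporter genes Tap1 (25.02 and 15.7 FPKM) and Tap2 (17.2 and 16.3) were within 2-fold. Macrophage markers, given here because immune cells also express these genes, lay on both sides: of 9 listed, 8 passed the filter, 6 were higher and none reached a log2 ratio of 1. The highest ratio was that of Cd68 (16.2 and 32.9 FPKM, log2 ratio 0.98) and the lowest that of Itgam (6.17 and 4.04 FPKM), with C1qa at 34.9 and 38.9 and Adgre1 at 5.25 and 6.81. The summed level was 500.1 FPKM in +NF and 448 FPKM in +NFD, most of it Lyz2 (373 and 288 FPKM), which was lower.

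Cytokine genes lay on both sides. Epidermal cytokines of the IL-36 group were at least 2-fold higher, with Il1f6 at 0.534 and 20.01 FPKM, Il1f8 at 3.88 and 18.7, Il1f9 at 32.8 and 91.04, and the antagonist gene Il1f5 at 2.26 and 42.4. Tslp, another keratinocyte cytokine gene, was at 2.03 and 6.81 FPKM. Some genes of neutrophil chemokines and growth factors were at least 2-fold lower: Cxcl5 was at 1390.1 and 567 FPKM, Cxcl3 at 726 and 307, and Csf3 at 29.4 and 3.08. Others of this kind were not, with Cxcl1 at 683 and 468 FPKM and Cxcl2 at 104 and 103. Il33, an alarmin gene, was at 41.4 and 2.85 FPKM, and Ccl20 at 14.5 and 2.74. Of the 33 passing cytokine genes, 6 were higher by 2-fold or more (18.2%, against 3.72% of all genes) and 7 lower by as much (21.2%, against 2.69%). Secretory and mucosal defence genes were mostly lower, 21 of 26 that passed the filter. At least 2-fold lower were 9 of the 26 (34.6%, against 2.69% of all genes). Besides Scgb1a1 and Ltf, Wfdc2 was at 646 and 283 FPKM, Bpifb4 at 122 and 29.4, and the defensin gene Defb3 at 297 and 49.98, while Lcn2 (7.71 and 17.1 FPKM), Defb4 and Wfdc12 were at least 2-fold higher. Proneural and secretory lineage factors, which Notch is known to hold down in the gut and airway, were largely unmeasured: 4 of 20 passed the filter, and Atoh1, Neurog1, Neurog2, Neurog3 and Neurod1 were listed at 0 in both libraries.

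Collagen genes were mostly higher with DBZ in the presence of FGF10, whereas other matrix genes lay on both sides. Of 24 passing collagens, 19 were higher, with a median of 0.70 on the log2 scale. At least 2-fold higher were 9 (37.5%, against 3.72% of all genes), and 1 was lower by as much (4.2%, against 2.69%). The fibrillar collagen genes Col1a1 (50.3 FPKM in +NF and 153 FPKM in +NFD), Col1a2 (27.9 and 111) and Col3a1 (6.81 and 56.7) and the microfibrillar Col6a1 (2.49 and 20.4) and Col6a2 (1.43 and 15.1) were among the higher ones. Col8a1, a short-chain collagen gene, was lower, at 65.3 and 8.20 FPKM, and so was Col18a1 within 2-fold, at 188 and 129. The basement membrane collagens Col4a1 (0.30) and Col4a2 (0.27) were within 2-fold on the log2 scale, as was Col17a1 (0.25) of the hemidesmosome.

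Other matrix genes had 45 passing members, 29 of them higher (64.4%, against 57.2% of all genes). Past 2-fold were 17 on the higher side (37.8%, against 3.72% of all genes) and 4 on the lower side (8.9%, against 2.69%). The summed level of the list was lower in +NFD, at 2826 FPKM in +NF and 2110 FPKM in +NFD. Periostin (Postn) was at 65.1 and 212 FPKM, biglycan (Bgn) at 21.5 and 114, and lumican (Lum) at 3.15 and 28.6. Those lower were Thbs1 (63.6 and 16.3 FPKM), Tnc (17.5 and 6.03), Ctgf (6.87 and 2.02) and Ecm1 (1925 and 889.9). Among matrix metalloproteinases, Mmp2 was at 10.9 and 65.9 FPKM, Mmp3 at 10.2 and 40.01, Mmp13 at 30.9 and 66.6, and Mmp9, the 1 member at least 2-fold lower, at 395 and 182.

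The mesenchymal marker list, which shares Col1a1, Col1a2, Col3a1, Lum and Dcn with the matrix lists, moved with them. Of its members outside those lists, Vim was at 11.3 and 67.5 FPKM, Thy1 at 0.325 and 11.1, Pdgfrb at 0.965 and 6.63, Pdgfra at 1.53 and 3.91, and Twist1 at 1.28 and 3.01, and none of the 10 was at 0 in either library. In the pair without FGF10, 0 of the 7 markers past 2-fold here were past 2-fold by this ratio, with summed levels of 169.9 FPKM in +N and 153 FPKM in +ND. For Thy1 (0.0769 FPKM in +N and 1.04 in +ND) and Pdgfrb (1.30 and 2.79) this holds only because 1 is added to each level. Of the 9 markers that passed the filter there, 5 were higher in +ND. The part of mesenchymal cells in the matrix result was not tested.

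Cell cycle genes differed little. Of 48 replication genes 37 were higher in +NFD (77.1%, against 57.2% of all genes). Of 50 mitosis genes 6 were higher (12.0%) and 44 lower. None of the 98 reached 2-fold, and the medians were 0.079 and -0.20. Mki67 was at 24.1 and 18.05 FPKM, Pcna at 134 and 141, and Ccnd1, the cyclin D1 gene, at 233 and 121. In the pair without FGF10 the same lists had medians of 0.62 and 0.69. The difference between the pairs was not tested, since each has 1 library per medium.

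Growth factor pathways were mostly within 2-fold, but less so the Fgf and Wnt ligand lists. Of 12 passing Fgf receptor and ligand genes, 4 were at least 2-fold higher and 1 was lower by as much. Of 11 passing Wnt ligand genes, these numbers were 3 and 1. Over all genes, 3.72% were at least 2-fold higher and 2.69% lower by as much. The ERK feedback genes that follow FGF signalling had 2 of 26 passing members past 2-fold, Dusp2 and Fosl1, while Dusp6 was at 226 and 176 FPKM, Spry2 at 18.4 and 20.9, and Etv4 at 64.1 and 67.6. Fgfr2, which encodes the receptor of FGF10, was at 24.2 and 50.8 FPKM (log2 ratio 1.04), Fgf7 at 0.162 and 2.74, and Fgf1, on the other side, at 8.70 and 1.15. Of the EGF receptor family and ligands, only Epgn (0.607 and 4.38 FPKM) was past 2-fold. Among Wnt ligands, Wnt3a (0.470 and 3.52 FPKM), Wnt6 (1.53 and 5.07) and Wnt7a (0.0983 and 1.21) were higher and Wnt11 (34.4 and 13.1) lower by at least 2-fold, whereas the Wnt target Axin2 was at 11.6 and 13.9. Apcdd1, a Wnt inhibitor gene, was the 1 member of the Wnt target and receptor list at least 2-fold higher, at 1.90 and 15.5 FPKM, and Fzd4, a Wnt receptor gene, the 1 lower by as much, at 10.8 and 4.47. BMP antagonist genes included Grem1 (2.42 and 8.15 FPKM) and Fstl1 (8.60 and 22.9), both past 2-fold. Within 2-fold, Nog was higher (2.50 and 3.48 FPKM) and Fst lower (3.59 and 1.86). Beside Shh, its targets Ptch1 (7.04 and 8.59 FPKM) and Gli1 (4.61 and 5.86) were higher within 2-fold.

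Metabolic lists shifted slightly and broadly. Of 35 sterol and fatty acid synthesis genes 31 were higher (88.6%, against 57.2% of all genes), none by 2-fold, with a median of 0.47. Of 67 nuclear genes of oxidative phosphorylation 60 were higher (89.6%), with a median of 0.13, against 0.048 over all genes. The part of the lower BC037156 share of +NFD in such small ratios was not tested. Adm (12.5 and 28.5 FPKM) and Eno2 (0.926 and 4.24) were the members of the glycolysis and hypoxia list past 2-fold. Chac1 (2.54 and 10.6 FPKM), Trib3 (3.47 and 13.5) and Asns (25.99 and 63.1), targets of Atf4 in the stress response, were at least 2-fold higher, while Hspa5, the chaperone gene of the unfolded protein response, was at 287 and 379. No p53 target or apoptosis gene was past 2-fold among 24 that passed the filter. Of 8 housekeeping genes 7 were within 2-fold.

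Set beside the pair without FGF10, the lists fell into kinds. Of the 45 cornified genes at least 2-fold higher with FGF10, 39 were also at least 2-fold higher in +ND than in +N; of the 39 interferon-stimulated genes at least 2-fold lower, 36 were so there as well. The enamel matrix list had 1 of its 4 higher genes past 2-fold there, Spp1, the regulators 1 of 6, Msx2, the collagens 2 of 9, and the other matrix genes 3 of 17. Levels show where these lists stood: in +N and +ND, Amelx was at 0.269 and 0.272 FPKM, Ambn at 0.340 and 0.139, and Shh at 0.0160 and 0. Over all genes that pass in both pairs, 235 of the 402 higher with FGF10 were also at least 2-fold higher without it, and 159 were within 2-fold. For the lower genes the numbers were 272 and 48 of 326. No difference between the pairs was tested.

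**Figure D5:**
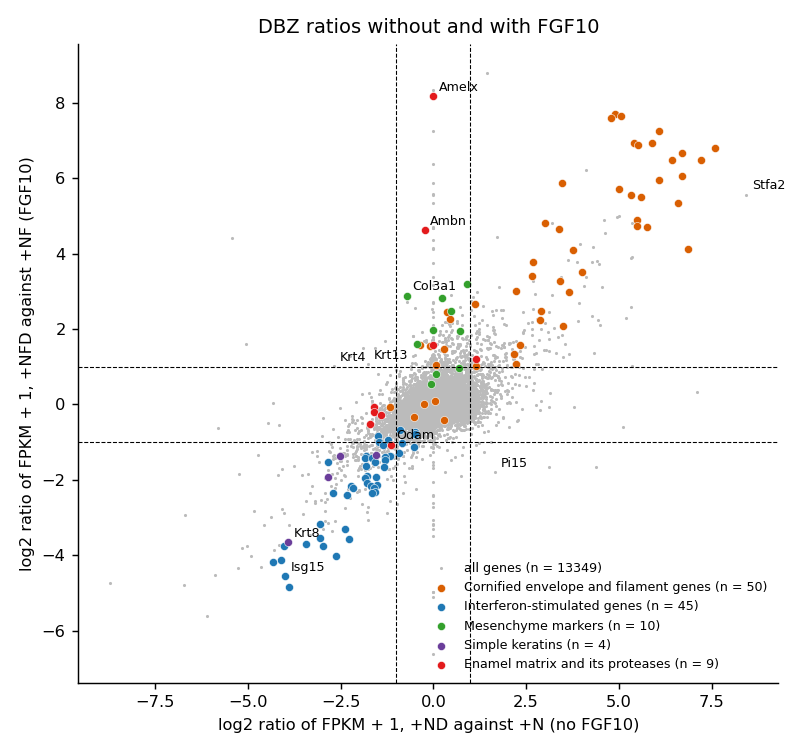
Log2 ratio of +ND over +N (horizontal, not filtered) against that of +NFD over +NF (vertical) for the 13349 genes that pass the filter with FGF10, with dashed lines at 2-fold and the genes of 5 lists in colour, 1 library per medium. Most cornified genes lie at the upper right and most interferon-stimulated genes at the lower left, while Amelx and Ambn lie high near a ratio of 0 on the horizontal axis.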

How the data were processed

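RNA-seq values of 1 library of DEOs in +NF and 1 in +NFD were compared, with +N and +ND alongside; +NJ and +NFJ were not analysed here. The values are FPKM as deposited: the authors checked and trimmed reads (FastQC 0.11.9, Trim Galore 0.6.5, per the submitters' processing notes), aligned them to GRCm38 with TopHat2 2.1.1 and estimated FPKM with Cufflinks. The annotation release and strand setting are not given in the sources used here, so overlapping genes on opposite strands and close gene copies may share fragments, and BC037156, the most abundant, lowers the FPKM of other genes. Since FPKM are not counts and each medium has 1 library, no test was run.

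Entries with the same symbol were summed (123 symbols). Ratios are log2((FPKM + 1)/(FPKM + 1)) over genes of at least 1 FPKM in the higher library, called at 2-fold. Library totals were not given; fragment numbers were estimated from the smallest steps of FPKM times length over 8409 genes whose only annotated transcript has 1000 nt or more, and 3 fragments were taken as the lowest number told from 0. Exact 95% intervals of fragment ratios cover counting error only. Positions and lengths came from GENCODE M21 on GRCm38 (47080 of 47493 entries found), and promoters (250 bases before the start) from RefSeq on GRCm38.p6.

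The comparison, its members and the 53 gene lists were chosen with earlier results of these data known. Named genes are the 15 highest and 15 lowest protein-coding genes of at least 5 FPKM with a transcript of at least 300 nt, list members past 2-fold, members of the Notch and enamel lists at any value, and genes the study names; other list members within 2-fold, named to show a group, and genes in no list were chosen after their values were seen. Of the listed names, 14 were not found in the table. Values of some list members are not reported here, although counts and medians include them. Alternatives were a pseudocount of 0.1 or none, no filter or a filter at 5 FPKM, upper-quartile scaling, centring on the median, the highest entry per symbol and a length limit of 300 nt; setting zeros at the value of 3 fragments was added after the data were seen. Scripts were tested on simulated data and run in Python 3.11.15 (matplotlib 3.10.9, scipy 1.17.1, pandas 2.3.3, numpy 2.4.6).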

Additional observations from a re-analysis of the deposited data

Results flagged for a closer look

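In 14 genes that passed the filter in both pairs of media, DBZ went with a difference past 2-fold in opposite directions. Of these, 5 are protein-coding genes with a transcript of at least 300 nt and are given here, and for the others no transcript of that length is annotated. Clu, which encodes clusterin, had a log2 ratio of 1.504 with FGF10 (26.3 FPKM in +NF, 76.3 in +NFD) and -1.58 without it (51.6 FPKM in +N, 16.6 in +ND). Fabp4, a fatty acid-binding protein gene, had 1.29 with FGF10 (2.38 and 7.24 FPKM) and -2.25 without it (149 and 30.5 FPKM). The mucosal keratin partners behaved alike, Krt13 with log2 ratios of 1.06 and -1.75 (18.5 and 39.7 FPKM with FGF10, 435 and 129 without) and Krt4 with 1.01 and -2.67 (3.79 and 8.68 FPKM with FGF10, 68.97 and 9.98 without). Pi15, a peptidase inhibitor gene, went the other way, with -1.80 (3.06 and 0.168 FPKM) and 1.67 (0.589 and 4.04 FPKM). For Fabp4, Krt13 and Krt4, +NF was far below +N, so the ratios with FGF10 start from lower levels. The difference between the pairs was not tested, and Clu, Fabp4 and Pi15 were chosen after their values were seen.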

How the results depend on the processing

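No paired analysis was possible because each medium has 1 library. With a filter at 5 FPKM, 307 genes were at least 2-fold higher in place of 497; over the other alternatives the higher genes numbered 452 to 738 and the lower genes, over all of them, 267 to 531. The median of the suprabasal keratins, 1.05, was 0.80 without a filter and 0.998 when centred, and that of the collagens, 0.70, was 1.02 without a pseudocount. No list or named gene changed direction past 2-fold under these alternatives. Centring shifted all ratios by -0.048 and upper-quartile scaling by -0.039; with these, genes just past 2-fold (Avil, Col11a1, Fbn1, Fgfr2, Fosl1, Gdf6, Krt1, Krt4, Loxl3, Tgm5 and Wnt7a) fell under it. With zeros at the value of 3 fragments, the cornified median was 3.86. With 1 library per medium, differences between cultures were not measured.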

Other observations

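Of 271 protein-coding genes of at least 5 FPKM that were at least 2-fold higher with DBZ in the presence of FGF10, list members included, 104 were within 2-fold in its absence, 7 of them with less than 1 FPKM in both +N and +ND. The genes named here are on no list and were chosen after their values were seen. Igfbpl1 was at 0.0877 FPKM in +NF and 8.78 in +NFD, and Ascl5, a basic helix-loop-helix factor gene of ameloblasts, was at 0.233 and 7.08, but both were listed at 0 in +N and +ND, where a difference could not be seen. Nts, the neurotensin gene, was at 0.872 and 10.2 FPKM. Dmp1, known from odontoblasts and osteocytes, was at 7.56 and 28.01 FPKM, Penk, the proenkephalin gene, at 13.1 and 52.00, and Aldh3a1 at 3.32 and 24.5. In the other direction, 27 of 230 lower genes were within 2-fold in the absence of FGF10, 3 of them with less than 1 FPKM in both +N and +ND. Has2, which encodes a hyaluronan synthase, was at 15.7 and 2.30 FPKM, Pdpn, the podoplanin gene, at 67.8 and 24.1, and Cxcr4, a chemokine receptor gene, at 9.86 and 3.95, Cxcr4 being under 1 FPKM in both +N and +ND. The difference between the pairs was not tested.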
